A study of Homo sapiens with 9 samples.

Results

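The genes described here encode the vesicle traffic machinery named RAB, VAMP, STX (syntaxin), SNX (sorting nexin) and VPS (vacuolar protein sorting). They were taken by symbol: every gene whose symbol starts with one of these prefixes followed by a digit, leaving out VAMP3, RAB27A and RAB38. This gave 100 of the 14812 genes with exactly 1 symbol on the array, of which 13 were RAB, 6 VAMP, 17 STX, 28 SNX and 36 VPS genes. Expression was measured in WM266-4 GFP cells, a human melanoma line of metastatic origin that is widely used, 48 h after lipofection with a synthetic mimic of the microRNA miR-199a-3p. Cells received the mimic at 0.5 nM (n = 3) or at 0.25 nM (n = 3), or a control microRNA at 0.5 nM (n = 3), and the labels call the samples of each group biological triplicates. All groups thus share the line, the GFP label and the transfection, and the 0.25 nM dose has no control of its own dose. The 2 comparisons with control use the same 3 control arrays, so their values are given side by side and not as independent evidence.

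Membrane cargo moves through cells in vesicles and tubules that bud from one compartment and fuse with the next. RAB GTPases mark each compartment and recruit tethers and motors, SNARE proteins of the syntaxin and VAMP families pull a vesicle and its target membrane together, and sorting nexins bind endosomal lipids and bend membranes around cargo. VPS proteins form the complexes of this route: retromer returns receptors from endosomes, CORVET and HOPS tether endosomes and lysosomes, ESCRT sorts ubiquitylated cargo into multivesicular bodies, and GARP and EARP tether vesicles at the trans-Golgi and at recycling endosomes. In melanocytes and melanoma cells the same machinery delivers pigment enzymes to melanosomes, which are organelles related to lysosomes.

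Few RAB GTPases were among the rows with a gene symbol here. The 13 RAB genes were 5 RAB11 family interacting proteins, 2 subunits of a RAB3 GTPase-activating complex, 2 guanine exchange factors, RAB5IF, the lncRNAs RAB11B-AS1 and RAB30-DT, and RAB6D, the one GTPase by name, at a mean level of 2.32 on the log2 scale. The RAB GTPases of early, recycling, secretory and late compartments were not analysed here. By RefSeq biotype 91 of the 100 genes were protein-coding, 7 were lncRNAs and 2 were transcribed pseudogenes (SNX29P1 and SNX29P2). VPS72 carries the VPS name but is a subunit of a chromatin remodelling complex.

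The mimic carries the mature sequence shown next, which RefSeq places on GRCh38.p14 at chr19:10817429-10817450 (MIR199A1) and chr1:172144554-172144575 (MIR199A2), both on the minus strand. Capitals mark the seed, bases 2 to 8, with which a microRNA pairs to its targets; the matching letters in a transcript read ACUACUG.
miR-199a-3p: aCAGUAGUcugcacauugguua
Seed matches in these genes were not searched here.

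The values are log2 intensities of the whole-transcript array after RMA, and each array was shifted to a common median before genes were compared. Without the shift the median gene lay 0.10 (0.5 nM) and 0.14 (0.25 nM) above control, so changes are relative to that shift. Of the 100 genes, 82 were at or above the median level of all genes, 6.25. For 21 of the 100 genes replicate 3 at 0.25 nM was left out because its number had fewer than 10 digits, which leaves n = 2 there. Digits appear to have been lost on that array, but intact short numbers may be among those left out. The deposited values of all 3 arrays of a group were exactly equal for 33 of the 100 genes at 0.5 nM and for 43 in control. At 0.25 nM they were so for 34 of the 79 genes with all 3 arrays kept. In contrast, no row was equal between arrays of different groups. Such ties within groups alone are the form that values take when each group is normalized and summarised apart, a step that no label records. If it was done, it cannot be told apart from the transfection in any difference between groups. The spread within a group then understates the error between groups. For this reason a limma test on the 3 group means, which takes its error from the difference between the doses, stands beside the limma fit over the 9 arrays. Of 9 melanoma and melanocyte markers 8 were measured and all 8 were at or above the median level, whereas none of the 9 measured keratinocyte, fibroblast, immune and endothelial markers was. By the fit over arrays, 1 of the 5 keratinocyte markers was higher and 4 were lower at 0.5 nM, and 3 were higher and 2 lower at 0.25 nM. The mean of the 5 on an array was 4.09 to 4.12 at 0.5 nM and 4.33 to 4.71 at 0.25 nM, against 4.42 to 4.49 in control, and their part in the results below was not tested.

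At the level of groups, no vesicle traffic gene passed the test against control. The error of this test comes from differences between the doses, mostly those of other genes. A real effect of dose thus counts as error, and the test can miss real changes. A gene that did not pass is therefore not shown to be unchanged. With both doses against control, 0 of 100 genes passed the limma test on group means after Benjamini-Hochberg adjustment, against 0.128% of all genes (19 of 14812; 0.027% higher and 0.101% lower). At an unadjusted p under 0.05 there were 6 of 100, against 6.56% of all genes. These 6 were VPS33A and STX17, which were lower, and SNX29, VAMP4, RAB3GAP2 and VPS26A, which were higher. The smallest adjusted p was 0.209, for VPS33A, and it ran from 0.0983 to 0.836 over the settings tried. Some of these settings changed the processing, and others left out 1 array or 1 replicate number. The median difference of the 100 genes was 0.01 at 0.5 nM and -0.01 at 0.25 nM, beside 0.01 and -0.02 for all genes.

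The lowest values relative to control were those of VPS33A, the Sec1/Munc18-like subunit of HOPS and CORVET that acts on SNAREs in fusion with lysosomes. VPS33A measured 7.18, 7.17 and 7.17 at 0.5 nM and 6.79, 7.15 and 7.20 at 0.25 nM, against 7.69, 7.75 and 7.86 in control. All 6 mimic arrays lay below all 3 control arrays, and replicate 1 at 0.25 nM was the lowest of all. In the limma fit over arrays the differences were -0.59 ± 0.11 (SE) at 0.5 nM and -0.72 ± 0.11 at 0.25 nM (0.664 and 0.608 of control), with adjusted p of 0.00196 and 0.000679. On group means the difference of both doses was -0.65 ± 0.18.

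STX17, the syntaxin that autophagosomes use to fuse with lysosomes, measured 6.84, 6.72 and 6.60 at 0.5 nM and 6.76, 6.75 and 6.75 at 0.25 nM, against 7.16 on each control array. Every mimic array was lower than control, and the doses overlapped each other. The differences were -0.45 ± 0.05 at 0.5 nM and -0.41 ± 0.05 at 0.25 nM, and -0.43 ± 0.20 on group means (limma adjusted p = 0.678). STX17-DT, the divergent lncRNA beside this gene, lay at a low level of 3.77 at 0.5 nM and 3.99 at 0.25 nM, against 3.74 in control.

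VPS29, the small scaffold subunit of retromer, measured 7.11, 7.37 and 7.18 at 0.5 nM and 7.15, 7.41 and 7.57 at 0.25 nM, against 7.59, 7.68 and 7.68 in control. Both doses were below control on every array, although the highest array at 0.25 nM was close to the lowest control array. The limma fit over arrays gave -0.43 ± 0.11 at 0.5 nM (adjusted p = 0.0123) and -0.27 ± 0.11 at 0.25 nM (adjusted p = 0.0702). With the replicate number as a block the 0.25 nM difference passed (adjusted p = 0.0370), but it ranged from -0.37 to -0.16 when 1 array was left out, passing without 0.25 nM replicate 3 and being smallest without 0.25 nM replicate 1. VPS50, the subunit that distinguishes EARP from GARP, measured 7.55, 7.54 and 7.53 at 0.5 nM and 7.36, 7.55 and 7.55 at 0.25 nM, against 7.76 on each control array. STX2, a plasma membrane syntaxin, measured 7.96, 8.02 and 7.95 at 0.5 nM and 7.77 and 7.77 at 0.25 nM, against 8.18, 8.18 and 8.16 in control. For both genes all mimic arrays were below control, with differences of -0.22 and -0.27 for VPS50 and of -0.20 and -0.40 for STX2 at the higher and the lower dose. Without the array shift neither VPS50 difference passed (-0.13 and -0.11, limma adjusted p = 0.0707 and 0.0991). VPS9D1-AS1, an antisense lncRNA, lay at -0.30 and -0.21 on average (-0.39 to -0.16 at 0.5 nM when 1 array was left out, the smallest without 0.5 nM replicate 1 and the largest without control replicate 1), but its arrays overlapped control at 0.5 nM and it did not pass at either dose (adjusted p = 0.0777 and 0.182 in the limma fit over arrays; 0.0343 at 0.5 nM with the replicate block).

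Among genes higher at both doses, VAMP4, a vesicle SNARE of the trans-Golgi network and endosomes, measured 7.92, 7.91 and 7.91 at 0.5 nM and 7.84 and 7.83 at 0.25 nM, against 7.43 on each control array. The intensity was 1.40 and 1.32 times that of control, with differences of 0.48 ± 0.01 and 0.40 ± 0.01, SEs that rest on exactly equal values within 0.5 nM and within control. On group means the difference was 0.44 ± 0.16 (limma adjusted p = 0.506). SNX29, a little studied sorting nexin, measured 7.87, 7.68 and 7.62 at 0.5 nM and 7.85, 7.82 and 7.84 at 0.25 nM, against 7.35, 7.33 and 7.23 in control. Its lowest mimic array was above its highest control array, with differences of 0.42 ± 0.06 and 0.53 ± 0.06 and a group-level difference of 0.47 ± 0.17 (limma adjusted p = 0.463). The 2 transcribed pseudogenes named after it are near copies by name, and whether the probes tell them apart was not checked here: SNX29P2 was 0.30 above control at 0.5 nM and 0.05 above it at 0.25 nM, and SNX29P1 lay at -0.22 and 0.10.

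RAB3GAP2, the non-catalytic subunit of the complex that activates RAB18 and inactivates RAB3, measured 9.93, 9.93 and 9.91 at 0.5 nM and 9.92, 9.90 and 9.90 at 0.25 nM, against 9.61 on each control array. VPS26A, an arrestin-like retromer subunit, measured 10.12, 10.11 and 10.11 at 0.5 nM and 10.04, 10.05 and 10.05 at 0.25 nM, against 9.79, 9.80 and 9.80 in control. Neither gene overlapped control; the differences were 0.31 and 0.30 for RAB3GAP2 and 0.31 and 0.25 for VPS26A. On group means they were 0.31 ± 0.13 and 0.28 ± 0.12 (limma adjusted p = 0.602 and 0.645). SNX7, a BAR-domain sorting nexin that pairs with SNX4, measured 8.14, 8.20 and 8.14 at 0.5 nM and 7.91, 8.12 and 8.18 at 0.25 nM, against 7.77, 7.93 and 7.81 in control. SNX7 was clear of control at 0.5 nM (0.32 ± 0.07) and overlapped it at 0.25 nM (0.23 ± 0.07), where the limma call was lost without control replicate 1 or 3 or without 0.25 nM replicate 2 or 3 (0.18 to 0.22). SNX30, its close relative, was 0.15 above control at each dose.

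**Figure D1:**
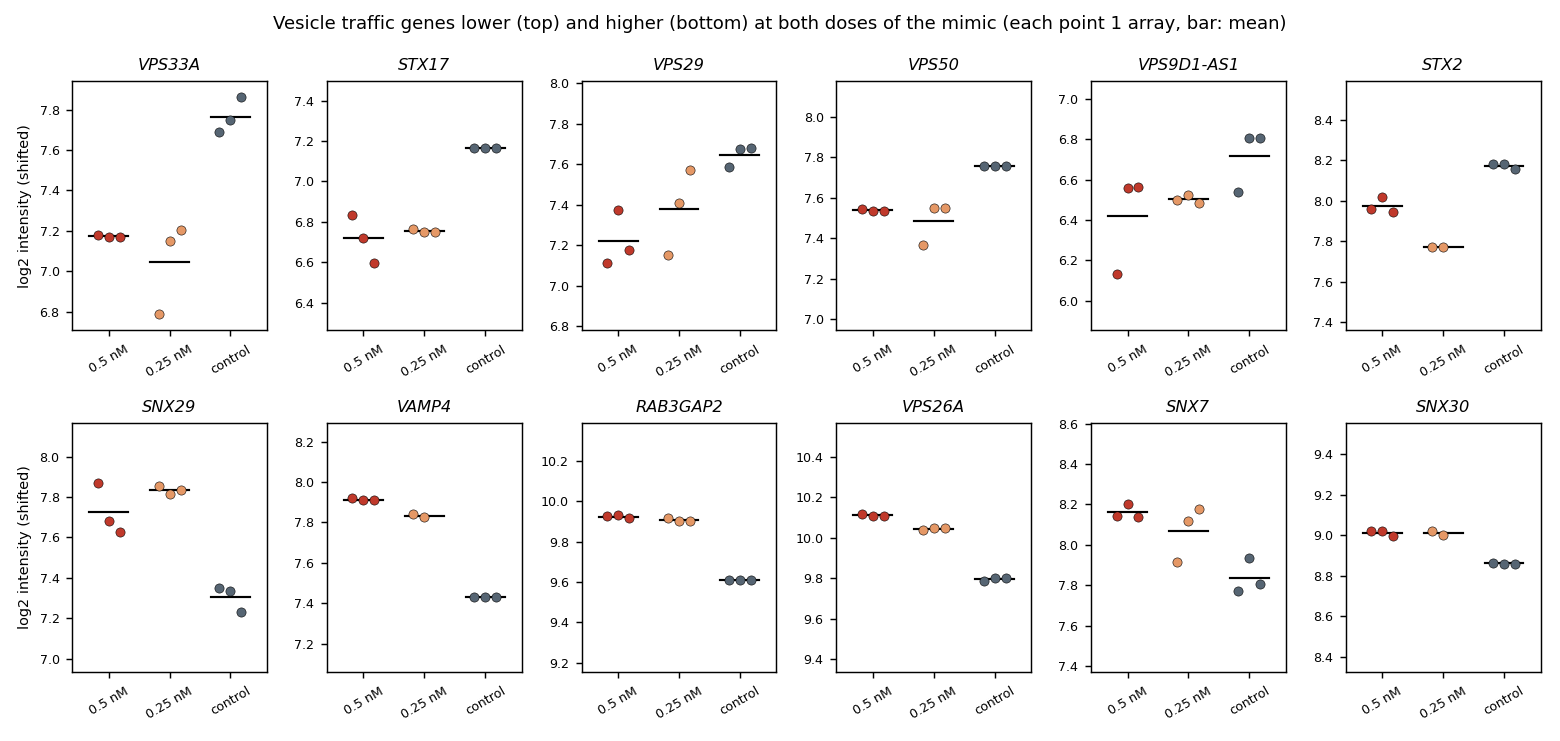
Log2 intensity (y axis, shifted to a common array median) of 12 vesicle traffic genes in cells given 0.5 nM mimic, 0.25 nM mimic or control microRNA; each point is 1 array and the bar is the group mean. VPS33A, STX17, VPS29, VPS50, VPS9D1-AS1 and STX2 (top) had lower means, and SNX29, VAMP4, RAB3GAP2, VPS26A, SNX7 and SNX30 (bottom) higher means, at both doses; VPS33A lay at -0.59 and -0.72 relative to control and VAMP4 at 0.48 and 0.40.

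In the limma fit over the 9 arrays many more genes passed, in both directions. At 0.5 nM 26 of the 100 genes were higher than control and 23 lower, against 33.2% and 30.1% of all genes, and 51 did not pass. At 0.25 nM 28 were higher and 29 lower, against 30.3% and 33.9% of all genes, and 43 did not pass. Fewer vesicle traffic genes than genes in general thus passed, 49 and 57 of 100 against 63.3% and 64.2%. At or above the median level of all genes the shares were closer: 41 and 46 of the 82 vesicle traffic genes, against 53.1% and 54.9% of genes. The arrays of mimic and control did not overlap for 62 genes at 0.5 nM and 69 at 0.25 nM, against 74.2% and 74.4% of all genes. At or above the median level the shares were 62.2% and 68.3%, against 65.8% and 65.5% of all genes at that level. All 100 differences lay between -0.59 and 0.48 at 0.5 nM and between -0.72 and 0.53 at 0.25 nM. Without the array shift 6 of the 23 lower calls at 0.5 nM had a positive difference (SNX8, SNX17, STX1A, STX16-NPEPL1, VAMP1 and VPS28), as did 10 of the 29 at 0.25 nM (RAB3IL1, SNX8, STX1A, STX3, STX8, VPS26B, VPS28, VPS33B, VPS45 and VPS52). Other lower calls were lost without the shift, where 10 genes were lower at 0.5 nM and 8 at 0.25 nM. Within replicate numbers the median difference of the 100 genes stayed between -0.03 and 0.02, with 79 of them measured in replicate 3 at 0.25 nM.

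No subfamily stood as a block above or below control. At 0.5 nM the counts higher and lower were 4 and 2 of 13 RAB genes, 2 and 2 of 6 VAMP genes, 4 and 7 of 17 STX genes, 9 and 4 of 28 SNX genes and 7 and 8 of 36 VPS genes. At 0.25 nM they were 2 and 5 for RAB, 4 and 2 for VAMP, 6 and 5 for STX, 10 and 4 for SNX and 6 and 13 for VPS. These counts, and those of the complexes and lists below, are to be read against the shares of all genes given above. No difference between subfamilies, complexes or lists was tested. Median differences were small everywhere. They were 0.02, 0.00, -0.04, 0.03 and 0.01 at 0.5 nM in that order of subfamilies, and -0.12, 0.13, 0.03, 0.03 and -0.09 at 0.25 nM. The negative medians of STX at 0.5 nM and of RAB and VPS at 0.25 nM turned positive (0.05, 0.04 and 0.07) without the array shift, and the STX median at 0.25 nM turned to -0.03 when the rows of a gene were averaged.

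**Figure D2:**
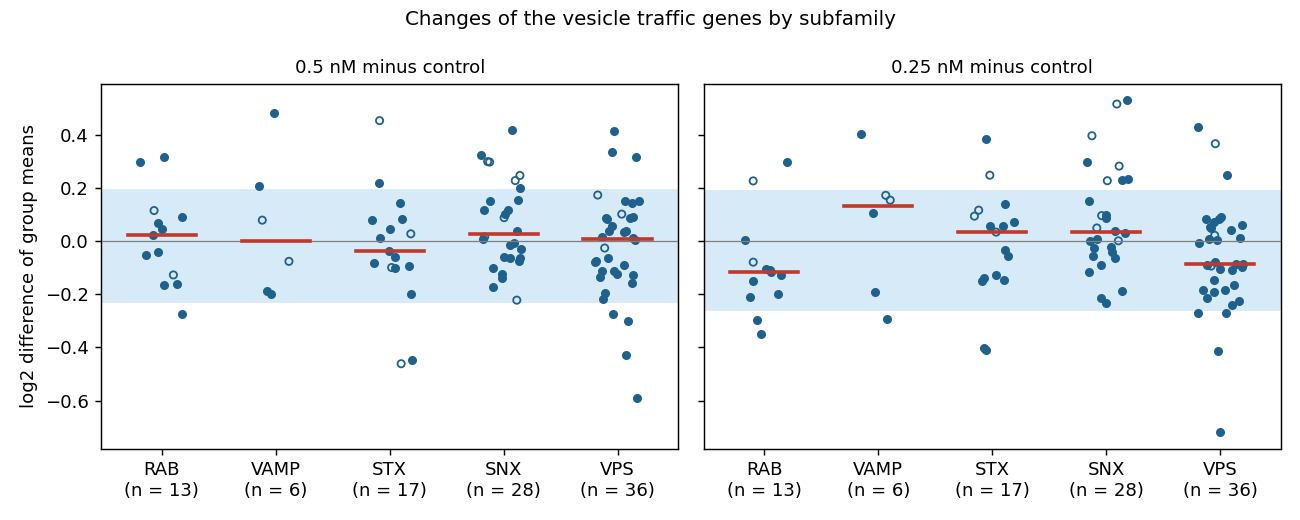
Log2 difference from control (y axis) of each vesicle traffic gene by subfamily at 0.5 nM (left) and 0.25 nM (right). Filled points are genes at or above the median level of all genes, open points those below it, red bars the subfamily medians, and the band the median ± 1 SD of all genes at or above that level; the subfamily medians lay between -0.12 and 0.13.

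Among the RAB genes are the 5 RAB11 interacting proteins, which sort cargo of recycling endosomes. At 0.5 nM 2 were higher and 1 was lower, and at 0.25 nM none was higher and 3 were lower, against the 33.9% of all genes lower at that dose. RAB11FIP5 measured 6.77, 6.76 and 6.75 at 0.5 nM and 6.41, 6.39 and 6.39 at 0.25 nM, against 6.69 on each control array. RAB11FIP5 was thus above control at the higher dose (0.07) and below it at the lower dose (-0.30). RAB11FIP4 lay at 0.02, which did not pass, and -0.20, and RAB11FIP3 at -0.27 and -0.11, of which the second did not pass. RAB3GAP1, the catalytic partner of RAB3GAP2, did not share its direction. RAB3GAP1 measured 9.36, 9.35 and 9.26 at 0.5 nM and 9.16 and 9.15 at 0.25 nM, against 9.36 on each control array, a difference of -0.04 that did not pass at 0.5 nM and of -0.21 at 0.25 nM. Without the array shift these differences were 0.05 and -0.06, and neither passed. RAB3IP, an exchange factor for RAB8, lay at -0.13 (0.5 nM) and 0.23 (0.25 nM) relative to control, at a level below the median of all genes.

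The SNAREs were split gene by gene. Of the 6 VAMP genes all passed at 0.25 nM, 4 higher and 2 lower, against 64.2% of all genes. At 0.5 nM 4 passed, 2 in each direction, against 63.3% of all genes. VAMP5, a VAMP of the cell surface and endosomes, lay 0.21 and 0.11 above control beside VAMP4. VAMP7, the longin SNARE of late endosomes and lysosomes, lay at -0.20 and -0.19, of which the second was -0.04 and did not pass without the array shift. VAMP2, a SNARE of secretory vesicles, measured 6.47, 6.34 and 6.46 at 0.5 nM and 6.43 and 6.20 at 0.25 nM, against 6.73, 6.55 and 6.55 in control. Its arrays stood below control by -0.19 (limma adjusted p = 0.0938; 0.0200 with the replicate block) and -0.29 (adjusted p = 0.0315). The second ranged from -0.41 to -0.18 without 0.25 nM replicate 1 or 2, and its call was lost without control replicate 1, 0.5 nM replicate 3 or 0.25 nM replicate 2. That call was also lost without the array shift (-0.14). VAMP1 was on either side of control, at -0.08 and 0.15, and VAMP8, which serves late endosomes and regulated exocytosis, at 0.08 and 0.17, of which the first did not pass.

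Of 6 measured syntaxins of the plasma membrane 1 was higher and 3 were lower at each dose. STX2 and STX1A, the neuronal-type syntaxin, were lower at both, STX1A with differences of -0.08 and -0.15 that were 0.01 and 0.00 without the array shift. STX3 lay at 0.05, which did not pass, and -0.14. STX4, which serves exocytosis in many cell types, lay at 0.08 for 0.5 nM and at -0.13 for 0.25 nM, and passed only with the replicate block (limma adjusted p = 0.00254 and 0.000342, against 0.333 and 0.120 without it). The 1 gene higher at both doses was STX19, which was at a level of 3.38 at 0.5 nM and 3.04 at 0.25 nM, against 2.93 in control. That is far below the median level, and its call at 0.25 nM was lost without any 1 of 4 arrays: control replicates 2 and 3 and 0.25 nM replicates 1 and 3.

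Of 8 measured syntaxins of endosomes, Golgi and ER 3 were higher and 2 lower at 0.5 nM, and 2 in each direction at 0.25 nM. STX18, an ER syntaxin for traffic returning from the Golgi, measured 8.43, 8.61 and 8.62 at 0.5 nM and 8.78, 8.76 and 8.84 at 0.25 nM, against 8.41 on each control array. The lower dose was thus the farther from control (0.38 ± 0.05, against 0.14 ± 0.05 at 0.5 nM), and the call at 0.5 nM was lost without any 1 control array, without 0.5 nM replicate 2 or 3 and without 0.25 nM replicate 1 or 2. STX6, a Golgi and endosome syntaxin, lay 0.08 and 0.14 above control, and STX8, which pairs with STX7 in late endosomes, -0.09 and -0.15 from it. STX10 was 0.22 above control at 0.5 nM and 0.06 at 0.25 nM, where it passed only with the replicate block (limma adjusted p = 0.0345, against 0.213).

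In retromer, the complex that recovers receptors from endosomes, the subunits did not move together. VPS26A was higher and VPS29 lower as described. VPS35, the long scaffold to which both bind, measured 11.09, 10.98 and 10.92 at 0.5 nM and 11.07, 11.03 and 11.03 at 0.25 nM, against 11.03, 10.98 and 10.95 in control. Its groups overlapped (0.00 ± 0.04 and 0.05 ± 0.04). VPS26B, the paralogue of VPS26A, was higher at 0.5 nM only and is described with the doses. Of 7 sorting nexins that work with retromer 1 was higher and 2 were lower at 0.5 nM, and 2 were higher and 1 lower at 0.25 nM. SNX27, which links retromer to PDZ-binding cargo, was 0.16 above control at 0.5 nM and at -0.00 at 0.25 nM. SNX6 measured 10.11, 10.31 and 10.27 at 0.5 nM and 10.28, 10.32 and 10.34 at 0.25 nM, against 10.40, 10.41 and 10.40 in control. All its mimic arrays were below control (-0.17 and -0.09). The limma fit over arrays called the first of these differences (adjusted p = 0.0188 and 0.159), a call lost without control replicate 2. Without the array shift the differences were -0.08 and 0.07, and neither passed. The 0.5 nM difference ranged from -0.21 to -0.11 when 1 array was left out, the smallest without 0.5 nM replicate 1. SNX32, a relative of SNX6 at a low level, lay 0.25 and 0.40 above control, with adjusted p of 0.0631 (0.0370 with the replicate block) and 0.00967 in the limma fit.

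Of 7 other sorting nexins with a membrane-bending BAR domain 4 were higher and 1 lower at 0.5 nM, and 2 in each direction at 0.25 nM. Beside SNX7 and SNX30, SNX18 was 0.12 above control at 0.5 nM and at -0.06 at 0.25 nM, which did not pass, and SNX33 lay at 0.20 and -0.21. SNX8 was -0.07 and -0.04 from control with arrays that did not overlap, although both signs turned without the array shift. SNX24, a sorting nexin with a phosphoinositide-binding PX domain, was 0.30 and 0.23 above control at a level below the median of all genes. SNX16 was at -0.01 at 0.5 nM, which did not pass, and 0.30 at 0.25 nM, and SNX17, which recycles integrins and LDL receptor family members, at -0.06 (limma adjusted p = 0.0344; 0.0651 with the replicate block) and -0.23.

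In HOPS and CORVET, VPS33A had the lower calls. Of 6 measured subunits 1 was higher and 1 lower at 0.5 nM, and 2 were higher and 1 lower at 0.25 nM, VPS33A being the lower one each time. VPS11, part of the shared core with VPS33A, lay at 0.01, which did not pass, and 0.09, and VPS18 at -0.11 and -0.24 with arrays that overlapped control (limma adjusted p = 0.427 and 0.103; 0.0479 at 0.25 nM with the replicate block). The HOPS subunits VPS39 (-0.16 and -0.09) and VPS41 (0.02 and 0.01) did not pass. VPS8 of CORVET was 0.04 and 0.08 above control. VPS33B, which pairs with another partner outside HOPS, lay at -0.13 and -0.10, the second passing without the replicate block only (limma adjusted p = 0.0317, against 0.0553 with it).

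Of 9 ESCRT genes none was higher and 2 were lower at 0.5 nM, and 1 was higher and 4 were lower at 0.25 nM. Of all genes 33.2% were higher and 30.1% lower at 0.5 nM, and 30.3% and 33.9% at 0.25 nM. VPS28, a core subunit of ESCRT-I, lay at -0.08 and -0.11, both of which turned positive (0.01 and 0.05) without the array shift. VPS37B, an interchangeable ESCRT-I subunit, measured 6.88, 7.14 and 6.90 at 0.5 nM and 6.93 and 6.96 at 0.25 nM, against 7.17 on each control array. All its mimic arrays were below control (-0.20 and -0.22), with limma adjusted p of 0.0458 and 0.0413. Both calls were lost without any 1 control array or without 0.25 nM replicate 1 or 2, the first also without 0.5 nM replicate 1 or 3, and with the replicate block the first was 0.0593. Neither VPS37B difference passed without the array shift (-0.11 and -0.07, limma adjusted p = 0.258 and 0.484). Its paralogue VPS37C went the other way, at 0.09, which did not pass, and 0.43, with 6.79, 6.62 and 6.77 at 0.25 nM against 6.30 on each control array. The ATPases that take ESCRT-III apart, VPS4A and VPS4B, lay at 0.04 and 0.04 at 0.5 nM, neither of which passed, and at -0.18 and -0.16 at 0.25 nM.

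Of 5 GARP and EARP subunits 1 was higher and 2 were lower at 0.5 nM, and none was higher and 3 were lower at 0.25 nM. VPS54, the subunit particular to GARP, measured 8.06, 8.17 and 8.05 at 0.5 nM and 7.66 and 7.92 at 0.25 nM, against 8.21 on each control array. It stood below control at both doses, by -0.11 ± 0.07 (limma adjusted p = 0.208) and -0.41 ± 0.08 (adjusted p = 0.00403). VPS51, shared by both complexes, was -0.27 from control at 0.5 nM and 0.07 at 0.25 nM, but the first difference was 0.01 when the rows of the gene were averaged in place of the brightest. VPS53 was 0.08 above control at 0.5 nM and at -0.01 at 0.25 nM. None of the 4 VPS13 genes, which encode bridges for lipid transfer between organelles, passed at either dose; their differences ran from -0.09 to 0.15. VPS13C (0.14 and 0.08) passed at both doses without control replicate 1. VPS35L and VPS26C, subunits of the retriever complex that recycles cargo apart from retromer, lay at 0.15 and 0.04 and at 0.10 and 0.02, of which the last did not pass.

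The 9 genes that are not protein-coding by RefSeq biotype were mostly below the median level. Of them 1 was higher and 2 were lower at 0.5 nM, and 4 were higher and none lower at 0.25 nM. STX18-AS1, an antisense lncRNA, lay at -0.10 and 0.09, and did not follow STX18 at the higher dose. STX16-NPEPL1, a readthrough transcript of STX16 and its neighbour, lay at -0.04 and 0.06. The lncRNAs RAB11B-AS1 (0.04 and -0.12) and RAB30-DT (-0.16 and -0.11) did not pass at either dose. The chromatin gene VPS72 lay at -0.14 and -0.19.

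**Figure D3:**
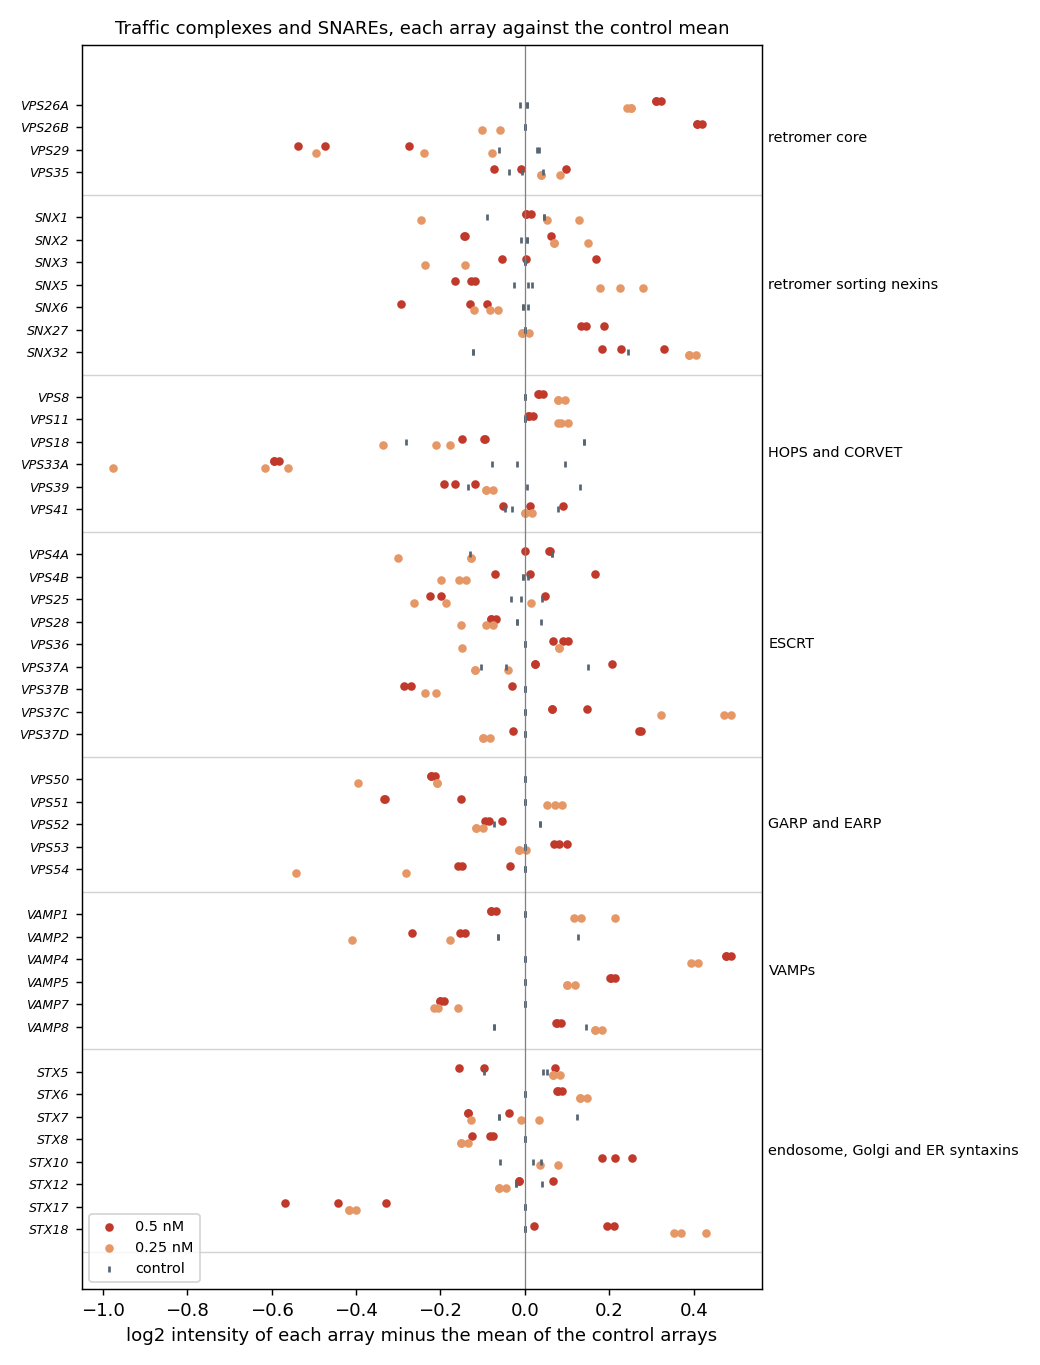
Log2 intensity of each array minus the mean of the 3 control arrays (x axis) for retromer, HOPS and CORVET, ESCRT, GARP and EARP subunits, VAMPs and syntaxins of endosomes, Golgi and ER; red points are 0.5 nM arrays, orange points 0.25 nM arrays and grey bars control arrays, without the replicate 3 values left out. Members of one complex lie on both sides of 0: in retromer VPS26A was 0.31 and 0.25 above control and VPS29 at -0.43 and -0.27.

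The 8 brightest of the 100 genes on the control arrays were VPS35, VPS25, STX7, SNX6, VPS41, SNX9, SNX2 and SNX4, with no order read between probes of different genes. Apart from SNX6 none of the 8 passed at either dose without the replicate block. VPS25, a core subunit of ESCRT-II, measured 10.71, 10.44 and 10.46 at 0.5 nM and 10.67, 10.47 and 10.40 at 0.25 nM, against 10.70, 10.63 and 10.65 in control, so its groups overlapped. STX7, a late endosome syntaxin, lay at -0.10 and -0.03, and the block made the first pass (limma adjusted p = 0.0444, against 0.212). SNX9, which acts with dynamin in endocytosis, lay at -0.01 and -0.06, and the block made the second pass (limma adjusted p = 0.0198, against 0.0583), although without the array shift both signs turned, to 0.0806 and 0.0917. SNX2 lay at -0.07 and 0.10 and SNX4 at -0.03 and -0.03.

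Many genes also differed between the doses. In the limma fit over arrays 34 of 100 genes were higher and 20 lower at 0.5 nM than at 0.25 nM, against 35.0% and 27.2% of all genes; these 54 calls stand beside 49 and 57 against control. In 66 genes the doses had arrays that did not overlap, against 72.2% of all genes. At or above the median level the shares were 58.5% and 62.1%. VPS26B measured 7.47, 7.46 and 7.46 at 0.5 nM, against 6.951 and 6.995 at 0.25 nM, while the control arrays were at 7.05 each. It thus stood above control at 0.5 nM (0.41) and slightly below it at 0.25 nM (-0.08), a sign that turned without the array shift. RAB3IL1, a RAB exchange factor, measured 6.68, 6.63 and 6.60 at 0.5 nM, against 6.21, 6.17 and 6.19 at 0.25 nM, with 6.34 on each control array. RAB11FIP1 measured 6.92, 6.91 and 6.91 at 0.5 nM, against 6.49, 6.47 and 6.47 at 0.25 nM, with 6.82 on each control array. In both, control lay between the doses, but for RAB3IL1 this did not hold without the array shift, where its 0.25 nM difference was 0.00733. VPS45, a Sec1/Munc18-like partner of endosomal SNAREs, measured 9.32, 9.31 and 9.31 at 0.5 nM, against 8.94, 8.87 and 8.87 at 0.25 nM, with 9.03, 8.96 and 8.96 in control, so its 2 differences were 0.33 and -0.09, the second turning sign without the array shift. SNX5, a partner of SNX1 and SNX2 in retromer sorting, ran the other way, at -0.14 and 0.23.

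Lower at 0.5 nM than at 0.25 nM were SNX31, STX11 and VPS13A-AS1. STX11, a syntaxin of lymphocyte and granule secretion, measured 5.31, 5.11 and 5.30 at 0.5 nM, against 5.75, 5.73 and 5.73 at 0.25 nM, with 5.75, 5.68 and 5.68 in control. Only the higher dose was apart from control there (-0.46 ± 0.05, against 0.03 ± 0.05). SNX31 measured 3.78, 3.77 and 3.76 at 0.5 nM, against 4.28, 4.26 and 4.26 at 0.25 nM, with 3.75 on each control array, and VPS13A-AS1 measured 5.69, 5.68 and 5.74, against 6.14, 6.12 and 6.03, with 5.73 on each control array. Both stood apart at the lower dose (0.51 and 0.37), and all 3 genes were below the median level of all genes.

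**Figure D4:**
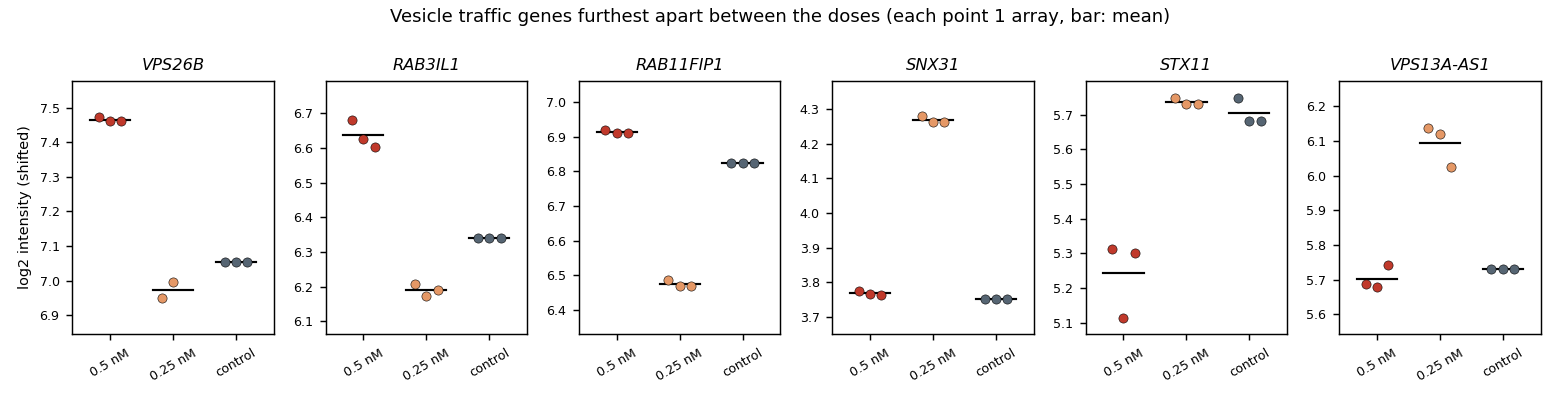
Log2 intensity (y axis, shifted to a common array median) of the 3 vesicle traffic genes most above and the 3 most below their 0.25 nM level at 0.5 nM; each point is 1 array and the bar is the group mean. VPS26B was 0.49 higher and SNX31 differed by -0.50 at 0.5 nM relative to 0.25 nM, and for RAB3IL1 and RAB11FIP1 the control arrays lie between the doses as drawn, which for RAB3IL1 did not hold without the array shift.

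The sizes of the differences were of the same order for all 3 pairs of groups. Over the 100 genes the SD of the differences was 0.195 for 0.5 nM against control, 0.211 for 0.25 nM against control and 0.202 for 0.5 nM against 0.25 nM, beside 0.308, 0.314 and 0.305 for all genes. For the 82 genes at or above the median level these SDs were 0.190, 0.202 and 0.175, beside 0.210, 0.223 and 0.206 for all genes at that level. A difference of more than 0.25 was seen in 18, 19 and 18 of the 100 genes, against 34.1%, 35.3% and 33.5% of all genes. At or above the median level it was seen in 14, 15 and 11 of the 82 genes (17.1%, 18.3% and 13.4%). Among all genes at that level it was seen in 20.8%, 23.4% and 20.3%.

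**Figure D5:**
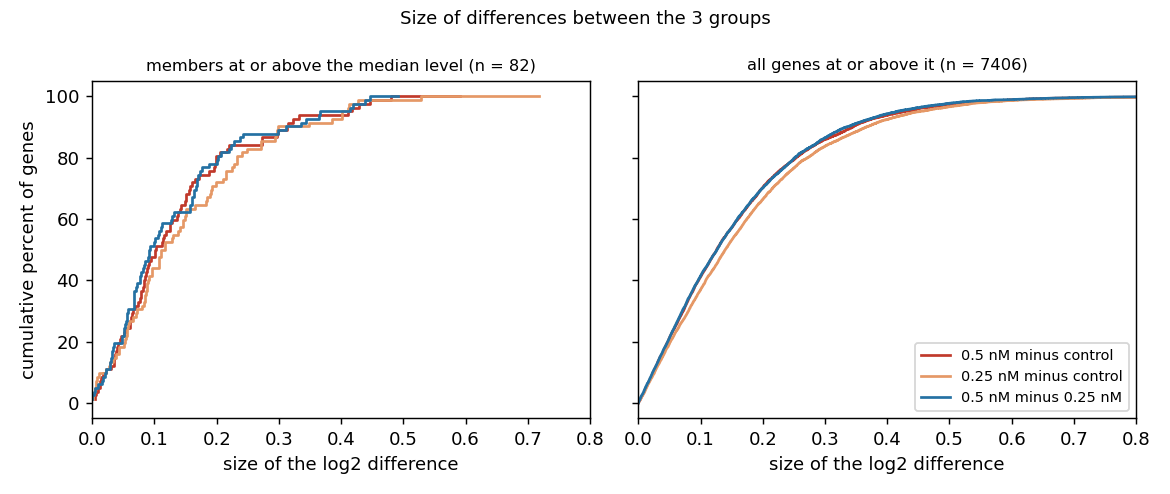
Cumulative percent of genes (y axis) against the size of their log2 difference (x axis, drawn up to 0.8) for 0.5 nM minus control, 0.25 nM minus control and 0.5 nM minus 0.25 nM, for the 82 vesicle traffic genes at or above the median level (left) and all 7406 genes at or above it (right). The 3 curves run close together in both panels; the SDs were 0.190, 0.202 and 0.175 on the left and 0.210, 0.223 and 0.206 on the right.

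Other genes of the pathway that do not carry these names were counted in 5 lists, and none of their measured genes passed on group means. The counts over arrays stand beside 33.2% of all genes higher and 30.1% lower at 0.5 nM, and 30.3% and 33.9% at 0.25 nM. From each list the 2 genes farthest from control by the mean of both doses are named, among genes at or above the median level. Of 11 measured other SNAREs 5 were higher and none lower at 0.5 nM, and 4 were higher and 1 lower at 0.25 nM in the limma fit over arrays. YKT6, a lipid-anchored SNARE, measured 8.46, 8.45 and 8.45 at 0.5 nM and 8.18, 8.26 and 8.26 at 0.25 nM, against 8.12 on each control array, and was apart from control at both. BNIP1, an ER SNARE, lay at 0.26 and 0.13 and did not pass, with control arrays from 6.56 to 7.04. Of 8 SNARE regulators 4 were higher and 4 lower at 0.5 nM, and 5 were higher and 2 lower at 0.25 nM. Among those at or above the median level, the syntaxin-binding proteins STXBP4 (0.30 and 0.32) and STXBP3 (-0.25 and -0.16) were named for their mean of both doses.

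Of 13 RAB regulators and effectors 5 were higher and 4 lower at 0.5 nM, and 5 were higher and 3 lower at 0.25 nM. EEA1, the early endosome tether that binds RAB5, was 0.30 and 0.13 above control, and CHML, an escort protein for RAB prenylation, lay at -0.05 and -0.29 and did not pass. Of 15 ESCRT-0, ESCRT-I and ESCRT-III genes 4 were higher and 5 lower at 0.5 nM, and 4 were higher and 7 lower at 0.25 nM. TSG101, the ESCRT-I subunit that binds ubiquitin, measured 8.98, 8.97 and 8.95 at 0.5 nM and 9.019 and 9.003 at 0.25 nM, against 9.29 on each control array. It and CHMP5 (-0.36 and -0.23) were below control on all mimic arrays. Of 8 exocyst subunits, which tether secretory vesicles at the plasma membrane, 1 was higher and 3 lower at 0.5 nM, and 2 were higher and 3 lower at 0.25 nM. EXOC2 lay 0.36 and 0.31 above control and EXOC6B at -0.33 and -0.47, with adjusted p on group means of 0.615 and 0.501 in limma.

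Promoter letters were compared because a palindromic E-box, CACGTG, and its extended form TCACGTGA resemble the element that lysosomal gene regulators of the TFEB family bind. RefSeq promoters on GRCh38.p14, of 300 bases from 250 before to 50 after the start, matched 77 of the 100 genes. CACGTG was found in 12 of the 77 (15.6%), against 8.77% of genes with a promoter in that table, and TCACGTGA in 5 (6.49%), against 1.18%. The 27305 genes with a promoter there were not matched to these genes for presence on the array, level or biotype. The shares thus cannot show whether the motifs are particular to vesicle traffic genes, and no test was run. The shorter motif is contained in the longer one, and being palindromes they read the same on both strands. Of the 5 promoters, those of RAB3GAP2 (chr1:220272404-220272703, minus strand) and STX4 (chr16:31033241-31033540, plus strand) are shown because the first gene was higher at both doses and the other had differences of opposite sign; capitals mark TCACGTGA.
RAB3GAP2 promoter: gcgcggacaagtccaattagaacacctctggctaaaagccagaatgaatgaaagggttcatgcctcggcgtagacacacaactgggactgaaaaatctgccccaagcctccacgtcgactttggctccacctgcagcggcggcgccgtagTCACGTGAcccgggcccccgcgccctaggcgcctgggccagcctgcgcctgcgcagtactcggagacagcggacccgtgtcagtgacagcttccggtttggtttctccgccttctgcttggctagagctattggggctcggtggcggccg
STX4 promoter: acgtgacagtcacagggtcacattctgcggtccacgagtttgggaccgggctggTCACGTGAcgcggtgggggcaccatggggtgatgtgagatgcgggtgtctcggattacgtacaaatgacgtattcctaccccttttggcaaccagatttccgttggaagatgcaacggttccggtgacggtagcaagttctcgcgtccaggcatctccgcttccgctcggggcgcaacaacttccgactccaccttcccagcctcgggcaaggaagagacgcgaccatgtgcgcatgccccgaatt
The 5 genes with TCACGTGA did not share a level of change: RAB3GAP2 lay at 0.31 and 0.30, STX6 at 0.08 and 0.14, VPS11 at 0.01 and 0.09, VPS26C at 0.10 and 0.02 and STX4 at 0.08 and -0.13 from control at 0.5 nM and 0.25 nM. A match of letters is a description and no binding was measured.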

How the data were processed

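Per the labels' protocols, a whole-transcript kit was used to attach biotin to the RNA. The deposited values are log2 intensities (44629 rows, 9 columns). Oligo, affy and RMA are the tools listed in the submitters' processing notes, without versions, order or genome build. Precision rests on 3 arrays per group. Platform annotation gave 1 symbol to 15835 rows, and the brightest row per gene left 14812 genes. In replicate 3 at 0.25 nM no value starts with 0 after the decimal point, while 4178 to 4774 do in each of the others, so values of fewer than 10 digits there (19.4% of rows) were left out. Arrays were shifted to one median. limma 3.58.1 in R 4.3.3 fitted 1 mean per group to the 9 arrays, with two-sided p-values adjusted by Benjamini-Hochberg over all genes and called under 0.05. The group-level test used limma with an intensity trend on the 3 group means (35.9 prior degrees of freedom). It borrows most of its error from other genes.

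Same-numbered arrays of different groups deviated together in all 9 pairs (correlation 0.136 to 0.589, different numbers -0.465 to 0.359). Replicates 2 and 3 of different groups also deviated together (0.165 to 0.359). These correlations thus set replicate 1 apart but do not tell replicates 2 and 3 from each other. The replicate block was taken from the data, not from the labels, and its pairing of replicates 2 and 3 is not established. Blocked values stand where they change a call. Named genes are, by rule, the largest changes per dose and between doses, those lower or higher at both doses, the 8 brightest, the retromer core and the highest and lowest mean of both doses in each list of members; from lists of other pathway genes, the 2 with the largest mean at or above the median level. Others named to describe a complex, a partner gene or the unadjusted calls were chosen after their values were seen. Members and lists were chosen with earlier results of these data known. Left out were rows with no symbol.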

Additional observations from a re-analysis of the deposited data

Results flagged for a closer look

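The 2 doses differed for 54 of the 100 vesicle traffic genes in the limma fit over arrays, which tests the difference between doses itself; 62.2% of all genes did so. The genes farthest apart were VPS26B, with a difference of 0.49 (0.5 nM minus 0.25 nM), RAB3IL1 with 0.45 and RAB11FIP1 with 0.44, and in the other direction SNX31 with -0.50, STX11 with -0.49 and VPS13A-AS1 with -0.39. For each the arrays of the doses did not overlap. No explanation was tested.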

How the results depend on the processing

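No vesicle traffic gene passed the group-level test in the main setting or in any other setting tried, leaving out each array in turn included. Without the array shift the fit over arrays gave 43 genes higher and 10 lower at 0.5 nM (median difference 0.10), 48 higher and 8 lower at 0.25 nM (median 0.14), and 21 higher and 32 lower at 0.5 nM than at 0.25 nM, since the shift sets where 0 lies. Quantile normalization moved the median at 0.25 nM to 0.0180. With only genes at or above the median level tested, 16 were higher at 0.25 nM (median -0.0726) and 11 lower at 0.5 nM than at 0.25 nM, with fewer genes tested. Leaving out each array in turn gave 24 to 28 higher and 19 to 24 lower at 0.5 nM (median -0.01 to 0.02), 24 to 29 higher and 22 to 32 lower at 0.25 nM (median -0.04 to -0.01), and 30 to 38 higher and 18 to 22 lower between doses. Reversed signs of the genes named by rule are listed only where the value passed in the main setting or in the changed one. Without the shift these were SNX9 (0.0806 at 0.5 nM, 0.0917 at 0.25 nM) and SNX8 (0.0247 and 0.11). At 0.25 nM they were also VPS26B (0.0737), VPS45 (0.0700), RAB3IL1 (0.00733), SNX4 (0.13) and VPS53 (0.15). The sign also reversed for SNX31 at 0.5 nM under quantile normalization (-0.10) and for VPS51 at 0.5 nM with rows averaged (0.00677). The causes of the last 2 were not tested. Of the named genes' other values, 1399 kept their call or its absence, 63 lost a call and 39 gained one. The 1399 include signs that turned where neither setting passed, as for RAB3GAP1 at 0.5 nM (0.0488 without the shift) and RAB11FIP3 at 0.25 nM (0.0465). Without the shift 10 calls were lost. These were RAB11FIP4, RAB3GAP1, VAMP2, STXBP3 and CHMP5 at 0.25 nM, SNX6 at 0.5 nM, and VPS37B and VPS50 at both doses. Beside the calls described above, leaving out 1 array changed calls as follows. Without 0.5 nM replicate 1, RAB11FIP3, SNX6, VPS51 and VPS9D1-AS1 passed at 0.25 nM, SNX9 did so (also without 0.5 nM replicate 3), and SNX2 passed at both doses. Without control replicate 1, SNX32 and VPS9D1-AS1 passed at 0.5 nM, and without control replicate 3 SNX4 passed at both doses. Without 0.25 nM replicate 1 or 2, VPS54 passed at 0.5 nM; without the first so did SNX31 and without the second VPS37C. VPS45 lost its call at 0.25 nM without 0.25 nM replicate 2 or 3. The replicate block, added for single genes after the data were seen, gave 28 higher and 25 lower at 0.5 nM, 29 and 32 at 0.25 nM, and 36 and 21 between doses. Apart from the genes named above and RAB5IF, RAB6D, SNX12, SNX29P1, SNX3, STX12 and VPS37A, it changed no call. The precision of all values is limited by 3 arrays per group and by the noise between groups.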
